A study of Homo sapiens with 12 samples.

Results

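The mRNAs of MYC, its dimerisation partner MAX and related network genes were measured in human lung adenocarcinoma cells after the microRNA miR-197 was added or blocked. The 10 genes were chosen by symbol, with earlier results of these arrays known, and are MYC, MYCN, MYCL1, MAX, MXD1, MXD3, MXD4, MXI1, MNT and MLX, out of 36279 gene names on the array. Each of the 3 lines A549, PC14 and PC14CDDP received 4 transfections at 25 nM. These were pre-miR-197 (a precursor-type mimic of the microRNA), the negative control NC, LNA-miR-197 (a locked nucleic acid antisense inhibitor) and its negative control LNA-NC. The labels call NC AllStar-NC and do not say that it is of the same oligonucleotide type as the mimic. Every combination was hybridised once, which gave 12 one-colour arrays. A549 and PC14 were purchased lung adenocarcinoma lines, PC14CDDP is the line kept as the cisplatin (CDDP)-resistant form of its parent PC14, and the study did not reauthenticate them. All cells, controls included, were exposed to the same lipid reagent, DharmaFECT 1, in the same serum-containing medium. The 3 lines therefore served as the replicates of a transfection, and the 4 differently transfected cultures of a line as the replicates of that line, so that p-values between lines measure only the spread between cultures of the same line.

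MYC is a transcription factor that binds DNA only as a dimer with MAX, mostly at the E-box, and it activates genes of ribosome production, nucleotide and polyamine synthesis and the cell cycle. MXD1, MXD3, MXD4, MXI1 and MNT also dimerise with MAX, occupy E-boxes and recruit SIN3-histone deacetylase complexes, by which they oppose MYC. MLX pairs with MondoA (the MLXIP protein) and ChREBP (the MLXIPL protein) at glucose-responsive genes, and also with MNT and some MXD proteins. In lung cancer, MYC, MYCN and MYCL1 are each known from gene amplification in subsets of tumours.

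The mature strands of the agent are shown because the pre-miR-197 and LNA-miR-197 arms of every comparison turn on them. They come from RefSeq (GRCh38.p14) and are written 5′ to 3′, with the seed, bases 2 to 8, in capitals.
hsa-miR-197-3p: uUCACCACcuucuccacccagc
hsa-miR-197-5p: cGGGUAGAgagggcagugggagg
The 3p strand lies at chr1:109598940-109598961 and the 5p strand at chr1:109598901-109598923, both on the plus strand. Their seeds differ. The arrays measured mRNA only, so the amount of miR-197 in each culture was not measured here.

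The array carries 21 probes for the 10 genes. Signals are given as the log2 level, the log2 of the processed Cy3 signal divided by its own array's 75th percentile, so that 0 is that percentile and a step of 1 is a doubling. Probes of a gene are numbered from the brightest. A probe was tested when it was well above the local background on at least 3 of the 12 arrays. This left 19 probes of 9 genes, of which 18 were above background on all 12 arrays. MYCL1 probe 2 was above background on 9 arrays, and on 1 of 4 in PC14CDDP. MYCN, the neuronal paralogue of MYC, stayed below the background criterion on all 12 arrays, and so did MYC probe 2, which matches only the transcript started at the distal P0 promoter.

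2 probes lie in coding sequence that shows what part of the protein a member's transcript encodes, and both belong to members that the LNA-miR-197 results turn on. MAX probe 2 spans hg19 chr14:65560459-65560518 and MXI1 probe 3 spans hg19 chr10:111985981-111986040. In MAX the capitals mark the 6 codons of the basic region that contacts the E-box, and in MXI1 the 14 codons of the amino-terminal helix that binds SIN3.
MAX probe 2: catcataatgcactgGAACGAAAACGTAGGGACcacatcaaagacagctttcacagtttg
MXI1 probe 3: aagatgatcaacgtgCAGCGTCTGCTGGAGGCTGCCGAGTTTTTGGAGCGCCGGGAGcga
MAX probe 1 lies at chr14:65542003-65542062 and MAX probe 3 at chr14:65550834-65550893. The array's design assigns MAX probe 1 to NM_145113, MAX probe 2 to NM_197957 and MAX probe 3 to NM_145114, which are different RefSeq transcripts of MAX, the common partner of the network.

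The core E-box, CACGTG, was looked for in the 300-base RefSeq promoter windows of the members (250 bases before to 50 after a transcript start, GRCh38.p14), because the network's own genes can carry the sequence that its dimers bind. It reads the same on both strands. Windows of 9 of the 10 genes were available, 12 windows in all, and 3 held it, against 7.26% of all 35116 windows. MYC itself was the gene without a window, so its promoter was not searched. The 3 windows belong to MXD4, MNT and MLX, and 30 bases of each are written 5′ to 3′ on the gene's strand with the E-box in capitals.
MXD4: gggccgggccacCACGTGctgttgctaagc
MNT: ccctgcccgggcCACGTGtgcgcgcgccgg
MLX: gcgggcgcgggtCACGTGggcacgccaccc
The MXD4 match lies at chr4:2262330-2262359 (minus strand), the MNT match at chr17:2401236-2401265 (minus strand) and the MLX match at chr17:42567038-42567067 (plus strand). Their E-boxes start 238, 193 and 50 bases before the transcript start. A match describes these letters only, and binding was not measured.

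MYC, by its probe 1 (NM_002467, the transcript from the main promoters), was strongly expressed in all 3 lines. In A549 cells the log2 level of MYC was 3.82 after NC, 4.38 after pre-miR-197, 3.68 after LNA-NC and 3.67 after LNA-miR-197. The same order of transfections gave 4.04, 4.91, 4.38 and 4.52 in PC14 and 4.50, 5.07, 4.37 and 4.51 in PC14CDDP. In each line the pre-miR-197 array was the highest of the 4, and the lowest array differed from line to line. The probe was spotted 10 times on each array, and the SD between its spots was 0.034 to 0.064 on the log2 scale, which is error within an array only.

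**Figure D1:**
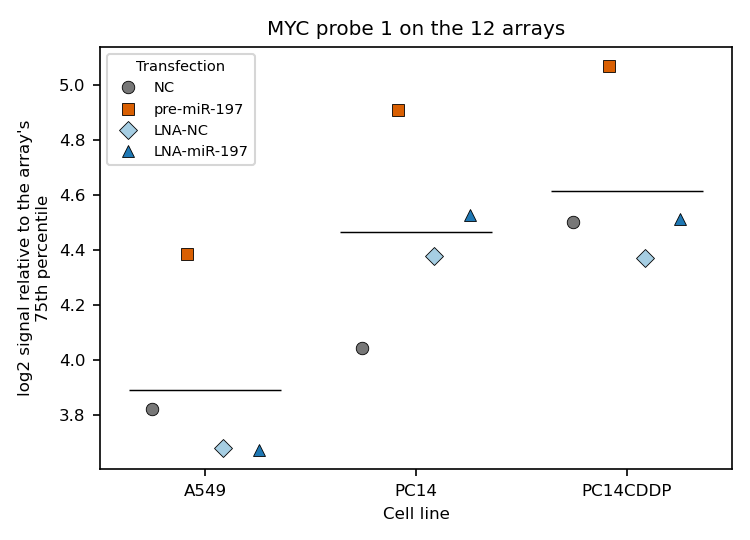
Log2 level of MYC probe 1 on the 12 arrays (0 is an array's 75th percentile), with the cell line on the horizontal axis, 1 symbol per transfection and a line at the mean of the 4 arrays of a cell line. The pre-miR-197 array is the highest of its line in all 3 lines, at 4.38, 4.91 and 5.07.

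The pre-miR-197 arrays were compared with the NC arrays to ask which genes follow a gain of miR-197. For MYC the log2 ratios in A549, PC14 and PC14CDDP were 0.56, 0.87 and 0.57, averaging 0.67 ± 0.18 (SD over n = 3 lines), or 1.59-fold. Because this ratio was known when the genes were chosen, it is given as a description without a test. In RNA of bulk cultures, more MYC mRNA per cell and a larger share of cells with MYC mRNA cannot be told apart.

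Among the 19 member probes, limma called 0 in this comparison at a Benjamini-Hochberg adjusted p under 0.05, where 0.0801% of the 33714 probes tested were called. The methods' t-test, run probe by probe on the same values, called 0 of all 33714 probes, so its count of 0 members carries no information about them. At an unadjusted p under 0.05 limma had 7 of the 19, beside 15.9% of all probes. MYC is 1 of the 7 and also enters the median that follows, and since its ratio was known beforehand nothing is read from either. The median size of the log2 ratio, without its sign, was 0.34 over the members and 0.18 over all probes tested.

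MXD1, an antagonist of MYC that is typically induced when cells differentiate, had the probe with the lowest ratio after pre-miR-197. MXD1 probe 1 read -1.77 after NC and -2.20 after pre-miR-197 in A549. In PC14 it read 0.19 and -0.62, and in PC14CDDP -0.15 and -0.86. All 3 lines were lower with the mimic, by -0.44, -0.81 and -0.70, and the mean log2 ratio was -0.65 (SE 0.15, adjusted p = 0.116 by limma), so the difference did not pass the test. The LNA-NC and LNA-miR-197 arrays of PC14 and PC14CDDP lay close to NC, between -0.17 and 0.12. Those of A549 lay above its NC array, at -1.11 and -1.26. MXD1 probe 2, which spans a splice junction at the 5′ end, had ratios of -0.07, -0.48 and -0.11 and a mean of -0.22 (SE 0.33).

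MXD4, another antagonist of the family, was lower by both of its probes in every line after pre-miR-197 without passing the test. MXD4 probe 2 read -0.97, -1.83 and -2.63 after NC in A549, PC14 and PC14CDDP, and -1.42, -2.29 and -2.83 after pre-miR-197. Its mean ratio was -0.37 (SE 0.12, adjusted p = 0.198 by limma), and that of MXD4 probe 1 was -0.34 (SE 0.17, adjusted p = 0.369). In every line the pre-miR-197 array was the lowest of the 4 for both probes of MXD4.

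MAX stood higher after pre-miR-197 by 2 of its 3 probes, again short of the threshold. MAX probe 2 had ratios of 0.29, 0.47 and 0.47 in A549, PC14 and PC14CDDP, with a mean of 0.41 (SE 0.10, adjusted p = 0.124 by limma). MAX probe 3 had ratios of 0.84, 0.65 and 0.35, with a mean of 0.62 (SE 0.15, adjusted p = 0.134). The bright MAX probe 1 was level, with ratios between -0.09 and 0.08, so the probes of MAX did not move together.

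The remaining members were less even after pre-miR-197. MXI1 was higher in 3 of 3 lines by its 3 probes, with means of 0.14, 0.35 and 0.43 and adjusted p-values of at least 0.389. MLX probe 1 was higher in 3 of 3 lines (mean 0.28, SE 0.10, adjusted p = 0.238), while MLX probe 2 averaged 0.05. MNT probes 1 and 2 averaged 0.13 and 0.34. MYCL1 probe 1 had ratios of 0.10, -0.64 and -0.58, and so opposite signs in A549 and the PC14 lines. The probes of MXD3 averaged -0.18 and 0.49, and the higher value was that of the dim probe 2.

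A fold of at least 1.2 in the same direction in all 3 lines was also counted, without a test. On the higher side 3 member probes met it after pre-miR-197 (MYC probe 1 and MAX probes 2 and 3), where 4.08% of all probes did. On the lower side 2 met it (MXD1 probe 1 and MXD4 probe 1), where 4.78% of all probes did. These 5 of 19 probes share their NC arrays, so 3 control arrays enter all of the ratios.

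**Figure D2:**
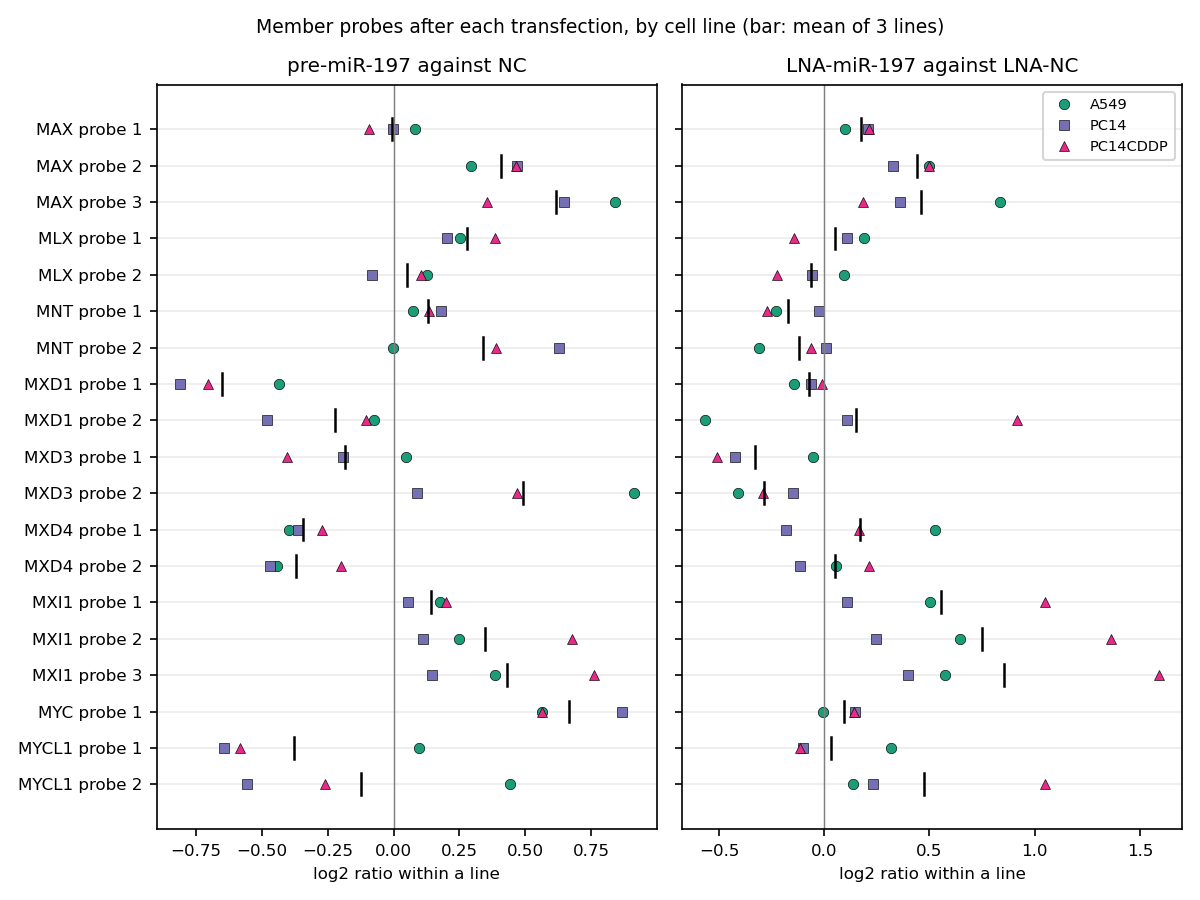
Log2 ratios of the 19 tested member probes within each cell line, for pre-miR-197 against NC (left) and LNA-miR-197 against LNA-NC (right), with 1 symbol per line and a black bar at the mean of the 3 lines. On the left MYC and MAX probes 2 and 3 lie above 0 and MXD1 and MXD4 below 0 in all 3 lines, and on the right the 3 MXI1 probes lie above 0 with PC14CDDP farthest out.

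The LNA-miR-197 arrays were compared with the LNA-NC arrays to ask which genes follow a loss of miR-197. MYC did not stand apart here: its log2 ratios were -0.01, 0.15 and 0.14, with a mean of 0.09 (SE 0.13, 95% interval -0.20 to 0.39, adjusted p = 0.683 by limma). The effect of LNA-miR-197 minus that of pre-miR-197 was -0.57 for MYC, which is given without a test because it contains the ratio known beforehand. In the test of the difference limma called 0 of 19 members and 0.0504% of all probes. At an unadjusted p under 0.05 it had 4 members, MYC among them, beside 18.5% of all probes.

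Limma called 1 member probe after LNA-miR-197, MAX probe 2, which rose, where 7.95% of all probes were called. MAX probe 2 read -1.29 after LNA-NC and -0.79 after LNA-miR-197 in A549. In PC14 it read -0.50 and -0.17, and in PC14CDDP -0.38 and 0.11. The LNA-miR-197 array was the highest of the 4 in each line and the pre-miR-197 array the next, so both active agents lay above both controls. The mean log2 ratio was 0.44 (SE 0.10, adjusted p = 0.0362 by limma), or 1.36-fold, higher in 3 of 3 lines. The call was lost without each line in turn, with adjusted p-values of 0.108 to 0.269, and 1 call among 19 is close to the share over all probes.

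MAX probe 3 was also higher in all 3 lines after LNA-miR-197, without passing the test. It read -3.04, -2.20, -2.81 and -1.98 in A549 after NC, pre-miR-197, LNA-NC and LNA-miR-197. In PC14 the same order gave -2.45, -1.80, -2.24 and -1.88, and in PC14CDDP it gave -1.85, -1.49, -1.41 and -1.22. Its ratio after LNA-miR-197 was 0.46 (SE 0.15, adjusted p = 0.0993 by limma). MAX probe 1 read 2.99 to 3.16 in A549, 3.53 to 3.75 in PC14 and 3.44 to 3.66 in PC14CDDP, and its ratio was 0.17 (SE 0.09, adjusted p = 0.273).

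MAX probe 2 was the only member probe at least 1.2-fold higher in all 6 ratios, 3 for the mimic and 3 for the inhibitor. Of all 33714 probes, 223 met that rule, which is 0.661%. For MAX probe 2 the effects of the mimic and the inhibitor differed by 0.03 (SE 0.14, 95% interval -0.28 to 0.35). The direct comparison of the controls, LNA-NC against NC, gave 0.09 (SE 0.10) for this probe. In that comparison limma called 0 of 19 members, where 0.454% of all probes were called. At an unadjusted p under 0.05 it had 2 members, beside 13.2% of all probes.

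MXI1, which pairs with MAX and recruits SIN3 to oppose MYC, had the highest ratios after LNA-miR-197 of the 19 probes. MXI1 probe 1 read -0.25 after LNA-NC and 0.25 after LNA-miR-197 in A549, 1.25 and 1.35 in PC14, and -0.49 and 0.56 in PC14CDDP. MXI1 probe 2 read -1.05 and -0.40, 0.62 and 0.86, and -0.46 and 0.90 in the same lines. MXI1 probe 3, in the SIN3-binding exon, read -4.24 and -3.67, -2.46 and -2.07, and -3.76 and -2.17. All 3 probes were higher in 3 of 3 lines, most in PC14CDDP and least in PC14, the line with the highest MXI1 after either control. The mean ratios were 0.55 (SE 0.17), 0.75 (SE 0.22) and 0.85 (SE 0.22) for MXI1 probes 1, 2 and 3, with adjusted p-values of 0.0875, 0.0709 and 0.0535 by limma. None passed the threshold here, although with a filter on all 12 arrays, and so fewer probes tested, the 3 had adjusted p-values of 0.0465, 0.0346 and 0.0239. Whether the lines differ in this response was not tested.

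**Figure D3:**
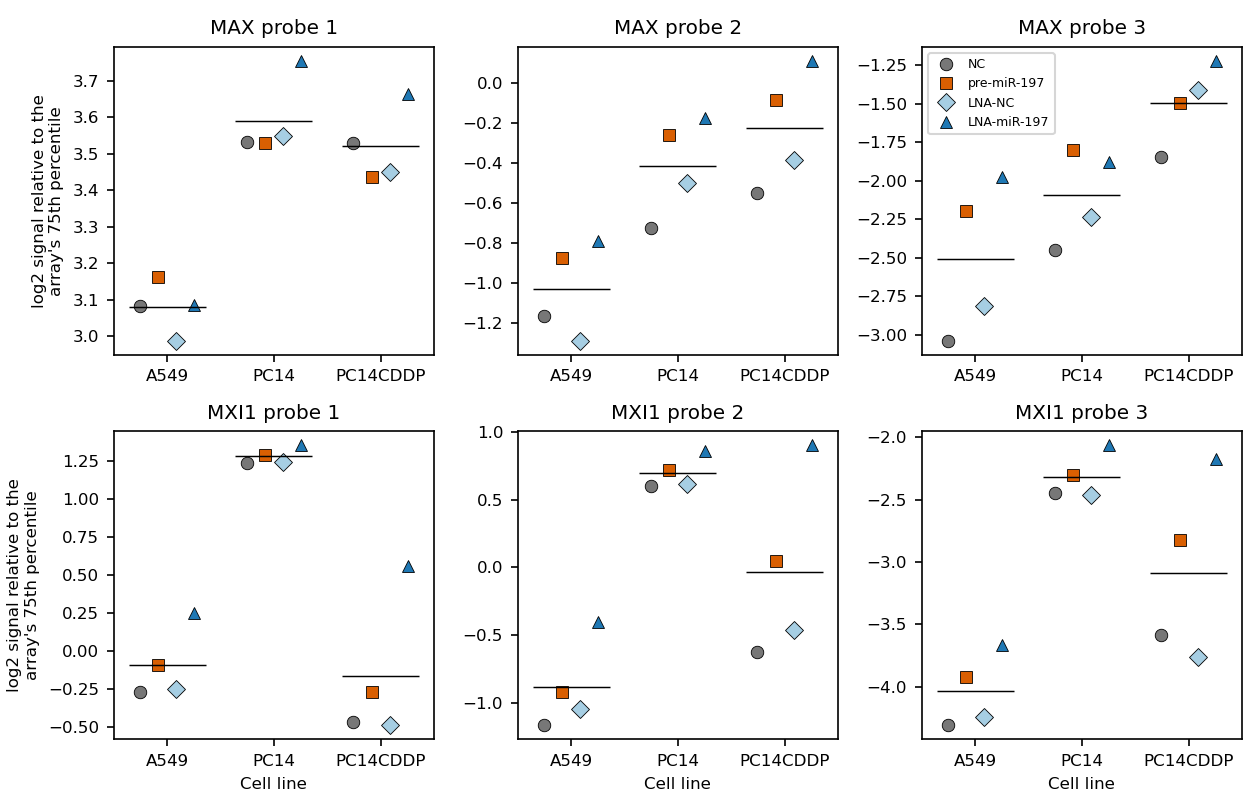
Log2 levels of the 3 MAX probes (top) and the 3 MXI1 probes (bottom) on the 12 arrays (0 is an array's 75th percentile), by cell line, with 1 symbol per transfection and a line at the mean of each cell line. The LNA-miR-197 arrays are the highest of their line for MAX probe 2 and for all MXI1 probes, and PC14 holds the highest line mean of MXI1 at 1.28, 0.70 and -2.32.

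By the 1.2-fold rule, 2 member probes were higher in all 3 lines after LNA-miR-197, MAX probe 2 and MXI1 probe 3, where 7.12% of all probes were. On the lower side 0 members met the rule and 8.31% of all probes did. MXD3, an antagonist known for its expression in S phase, had ratios of -0.06, -0.42 and -0.51 by probe 1 (mean -0.33, SE 0.12, adjusted p = 0.132). MXD1, MXD4, MNT, MLX and MYCL1 had mean ratios between -0.17 and 0.47, each with an adjusted p of at least 0.329. The control comparison set a scale for dim probes: MXD3 probe 2, with line means of -4.06 to -4.99, differed by 0.96 between LNA-NC and NC (SE 0.18, adjusted p = 0.0666), which is larger than its ratio after either active agent.

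The 4 transfections occupied the same columns of the slides in every line, so transfection and array position cannot be told apart. Summed over 4 leukocyte genes (PTPRC, CD3E, CD14 and CD68), the signal relative to the 75th percentile was 1.14 to 3.69 after NC and 1.18 to 2.47 after pre-miR-197. It was 1.66 to 4.53 after LNA-NC and 2.24 to 3.58 after LNA-miR-197, and 0 of these 4 genes were called in either comparison. By line the same sum was 2.40 to 3.19 in A549, 1.14 to 2.24 in PC14 and 2.24 to 4.53 in PC14CDDP. The ranges by transfection overlapped, but they pool these lines and so do not show the change within a line. Of 5 fibroblast genes only COL1A1 was measured, and it fell after LNA-miR-197 by 1.05 on the log2 scale (adjusted p = 0.0424 by limma). After pre-miR-197 its mean log2 ratio was -1.08 (adjusted p = 0.116), so it was lower with both active agents, as MAX probe 2 was higher with both. COL1A2, COL3A1, DCN and PDGFRB were not above background on enough arrays, and the part of COL1A1 in the MAX values was not tested.

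Arrays of each line were then compared over the 4 transfections to ask how the network differs between A549, PC14 and the cisplatin-resistant PC14CDDP. MYC was lowest in A549, with a mean log2 level of 3.89 ± 0.34 (SD, n = 4 arrays), against 4.46 ± 0.36 in PC14 and 4.61 ± 0.31 in PC14CDDP. The ranges of the lines overlapped, but with the transfection in the model A549 lay below PC14 by -0.57 (SE 0.11, adjusted p = 0.00184 by limma) and below PC14CDDP by -0.72 (SE 0.11, adjusted p = 0.000444). PC14CDDP and PC14 differed by 0.15 (SE 0.11, 95% interval -0.11 to 0.40, adjusted p = 0.306), so these neighbours did not differ beyond their spread.

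Between PC14CDDP and PC14, limma called 12 of 19 member probes, 6 higher and 6 lower, where 48.7% of all probes were called (8476 higher and 7931 lower). The antagonists did not move together. MNT rose, MXI1 and MXD4 fell by all of their probes, and the probes of MXD1 were not called. The PC14 arrays lay in row 1 and the PC14CDDP arrays in row 2 of the same slide, so line and row cannot be told apart.

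MNT, the ubiquitous antagonist of the network, had the lowest adjusted p of the members. MNT probe 1 read 2.10 to 2.28 on the 4 PC14 arrays and 3.37 to 3.78 on the 4 PC14CDDP arrays. The groups did not overlap, and PC14CDDP was higher by 1.46 (SE 0.10, adjusted p = 1.2e-05), or 2.75-fold. MNT probe 2 was higher by 0.70 (SE 0.13, adjusted p = 0.00263), with -1.53 to -0.90 in PC14 and -0.87 to -0.16 in PC14CDDP.

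MXI1 fell in PC14CDDP. MXI1 probe 1 read 1.24 to 1.35 in PC14 and -0.49 to 0.56 in PC14CDDP, a difference of -1.45 (SE 0.15, adjusted p = 0.000119) or 2.74-fold. MXI1 probes 2 and 3 were lower by -0.73 (SE 0.19, adjusted p = 0.0119) and -0.77 (SE 0.19, adjusted p = 0.0106). The PC14CDDP array with LNA-miR-197 was the exception, since it reached 0.90 by MXI1 probe 2, above all 4 PC14 arrays.

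MYCL1, the MYC paralogue first found in small cell lung cancer, also fell. MYCL1 probe 1 read -1.28 to -0.64 in PC14 and -2.60 to -1.63 in PC14CDDP, without overlap, and the difference was -1.16 (SE 0.17, adjusted p = 0.000676), or 2.24-fold. MXD4 fell by 0.52 on the log2 scale by probe 2 (SE 0.10, adjusted p = 0.00327) and by 0.43 by probe 1 (SE 0.15, adjusted p = 0.0387).

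MLX, the partner of MondoA, rose by 0.46 on the log2 scale by probe 1 (SE 0.09, adjusted p = 0.00267), from 2.38 to 2.60 on the PC14 arrays to 2.83 to 3.21 on the PC14CDDP arrays. MLX probe 2, over a splice junction, rose by 0.28 (SE 0.09, adjusted p = 0.0253). MAX probe 3 was higher by 0.60 (SE 0.13, adjusted p = 0.00588), while MAX probe 1 differed by -0.07 (SE 0.08) and MAX probe 2 by 0.19 (SE 0.08, adjusted p = 0.0986). The sixth probe that rose was the dim MXD3 probe 2 (0.51, SE 0.15), and MXD3 probe 1 differed the other way by -0.25 without passing the test.

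**Figure D4:**
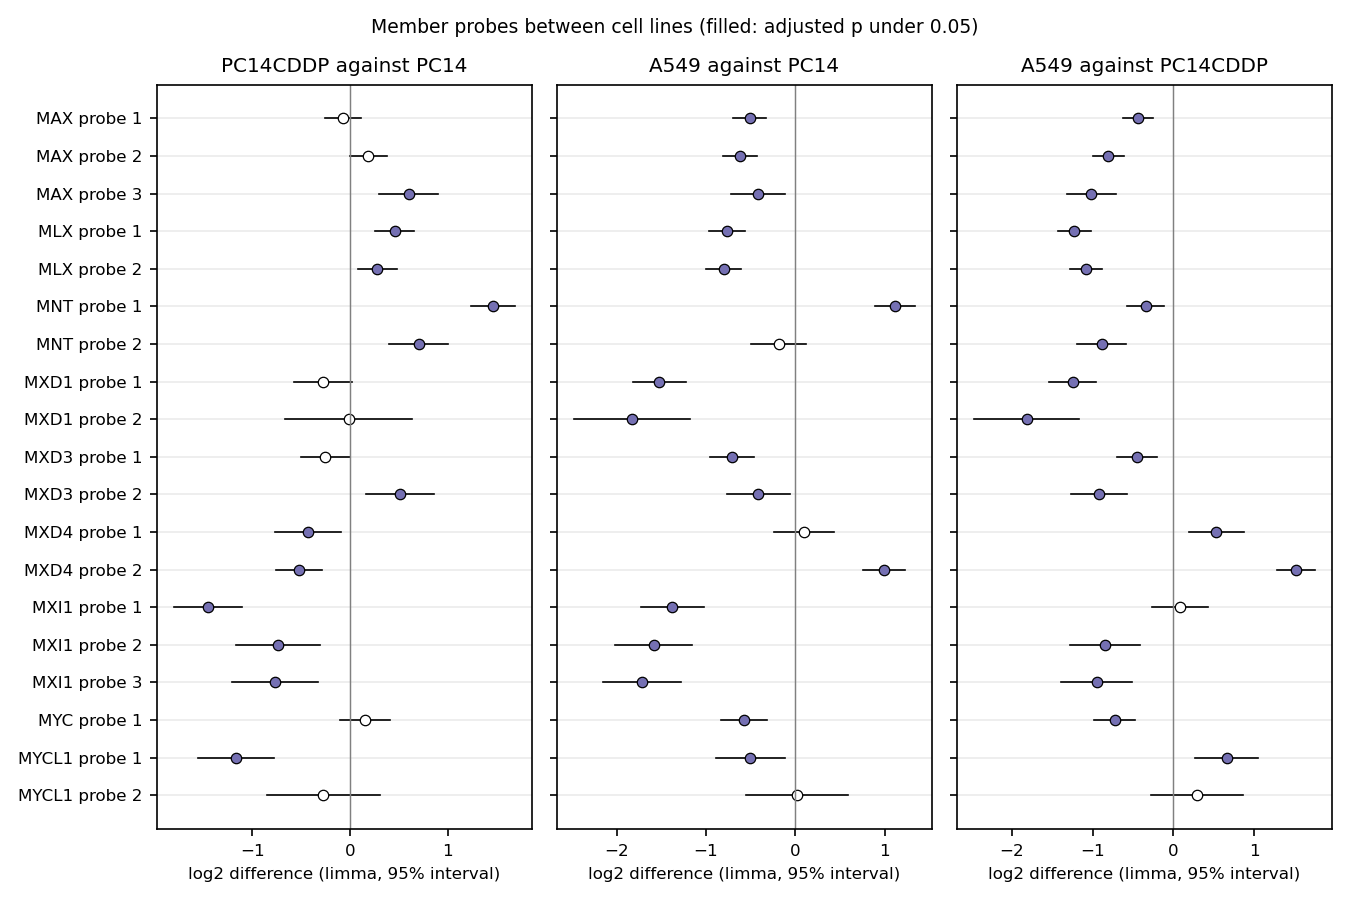
Log2 differences of the 19 member probes between cell lines as fitted by limma, with 95% intervals and filled points where the adjusted p was under 0.05. MNT probe 1 lies at 1.46 and MXI1 probe 1 at -1.45 for PC14CDDP against PC14 (left), and most points lie below 0 for A549 against either other line (middle and right).

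A549 differed from both other lines at most member probes. Against PC14, 16 of 19 were called, 2 higher and 14 lower, where 67.4% of all probes were called (11585 higher and 11147 lower). Against PC14CDDP, 17 of 19 were called, 3 higher and 14 lower, where 70.1% of all probes were (11958 higher and 11687 lower). The median log2 difference was -0.57 over the members against PC14 and -0.80 against PC14CDDP, beside 0.05 and 0.03 over all probes. All A549 arrays lay on a slide of their own, so line and slide cannot be told apart here.

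MXD1 was the antagonist farthest below in A549. MXD1 probe 1 read -2.20 to -1.11 in A549, -0.62 to 0.19 in PC14 and -0.86 to -0.15 in PC14CDDP. A549 overlapped neither line and was lower than PC14 by -1.52 (SE 0.13, adjusted p = 1.46e-05) and than PC14CDDP by -1.25 (SE 0.13, adjusted p = 4.05e-05). MXD1 probe 2 was lower by -1.83 and -1.81 (SE 0.28 each).

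MXD4 went the other way. MXD4 probe 2 read -1.42 to -0.90 in A549, -2.29 to -1.83 in PC14 and -2.83 to -2.31 in PC14CDDP, with no overlap between any pair of lines. A549 was higher than PC14 by 0.99 (SE 0.10, adjusted p = 4.86e-05) and than PC14CDDP by 1.51 (SE 0.10, adjusted p = 3.41e-06). MXD4 probe 1 differed by 0.10 (SE 0.15) and 0.53 (SE 0.15, adjusted p = 0.0107).

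MLX rose from A549 through PC14 to PC14CDDP by both probes. MLX probe 1 averaged 1.75 ± 0.13, 2.51 ± 0.10 and 2.97 ± 0.18 (SD, n = 4 arrays each), and MLX probe 2 averaged 0.86 ± 0.06, 1.66 ± 0.06 and 1.94 ± 0.11. The ranges of MLX probe 1 did not overlap between any pair of lines, and A549 lay below PC14CDDP by -1.22 (SE 0.09, adjusted p = 4.44e-06). MNT probe 1 was lowest in PC14 instead, with A549 higher than PC14 by 1.12 (SE 0.10, adjusted p = 1.8e-05). MNT probe 2 differed there by -0.19 (SE 0.13, adjusted p = 0.24), so the probes of MNT disagreed. MXI1 was lower in A549 than in PC14 by all 3 probes, by -1.37, -1.58 and -1.71 (SE 0.15, 0.19 and 0.19).

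Beside these line differences, the epithelial markers also differed between the lines. KRT8 and KRT18, keratins of simple epithelium, were above background on all 12 arrays. The adhesion molecules EPCAM and CDH1 (E-cadherin) were above background on 4 of 4 A549 arrays and on 0 of 4 PC14CDDP arrays, with 3 and 2 of 4 in PC14. CLDN4, a tight-junction protein, averaged 5.98 in PC14, -0.08 in A549 and -3.52 in PC14CDDP. Of the 6 epithelial genes 4 were lower in PC14CDDP than in PC14 and 0 higher, where 48.7% of all probes were called, and the summed signal of the 6 was 302 to 417 times the 75th percentile in A549, 215 to 283 in PC14 and 159 to 229 in PC14CDDP. The lung lineage factor NKX2-1 was above background on 0 of 4 A549 arrays and on all arrays of the other lines, whereas SFTPC (surfactant protein C), NAPSA (napsin A) and FOXA2 averaged higher in A549 than in PC14. The part of these differences in the member results was not tested.

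Genes that MYC is known to activate were next read from a list of 40, with 1 probe per gene, drawn up when the MYC ratio was already known. After pre-miR-197 limma called 0 of the 40, where 0.0801% of all probes were called, with 19 at an unadjusted p under 0.05, beside 15.9% of all probes. The median log2 ratio of the list was 0.25, beside 0.03 over all 24860 genes. Without a test, 28 of the 40 genes were higher in all 3 lines, which is 70.0%, where 25.9% of all genes were, and 2 were lower in all 3 lines, where 18.6% of all genes were.

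ODC1, the rate-limiting enzyme of polyamine synthesis, headed the list, and its ratios in A549, PC14 and PC14CDDP were 0.47, 0.68 and 0.82. SLC7A5, an amino acid transporter, had 0.76, 0.68 and 0.39, and DKC1, the pseudouridine synthase dyskerin, had 0.44, 0.51 and 0.63. The 2 genes lower in all lines were UBTF, a ribosomal DNA transcription factor, and CCND2, a D-type cyclin, which was above background in PC14CDDP only, so that its ratios in the other lines compare background signals. All of these ratios share the NC arrays with that of MYC. After LNA-miR-197 limma called 0 of the 40, where 7.95% of all probes were called. At an unadjusted p under 0.05 there were 11 of the 40, the same share as the 27.5% of all probes, and the median was 0.04 beside -0.02 over all genes. There 17 were higher in all 3 lines, which is 42.5%, where 23.0% of all genes were. On the lower side 11 were lower in all 3 lines, which is 27.5%, where 24.8% of all genes were.

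**Figure D5:**
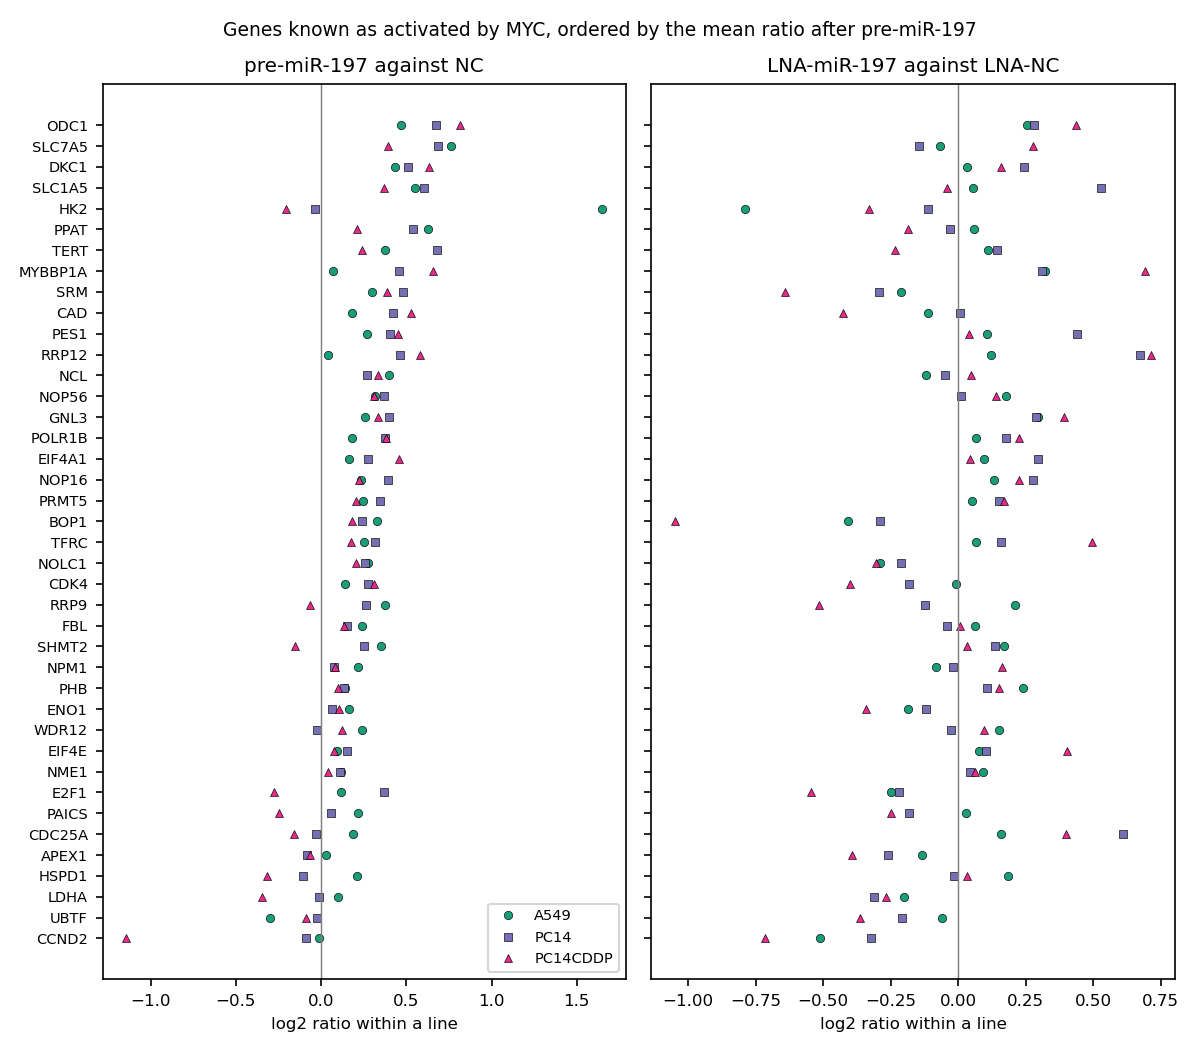
Log2 ratios within each cell line of the 40 genes known to be activated by MYC, ordered from top to bottom by the mean ratio after pre-miR-197 (left), with the ratios after LNA-miR-197 in the same order (right). On the left 28 genes lie above 0 in all 3 lines and on the right 17 do.

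Between PC14CDDP and PC14, 18 of the 40 activated genes were higher and 6 lower, where 48.7% of all probes were called, with a median of 0.22 beside 0.03 over all genes. CCND2 was not well above background on any PC14 array and was on all 4 PC14CDDP arrays, at least 38.7-fold higher, measured against the dimmest signal well above background on each array. POLR1B (a subunit of RNA polymerase I), CDK4 (a cell-cycle kinase) and PHB (a mitochondrial scaffold protein) rose by 0.91, 0.97 and 0.69 on the log2 scale (SE 0.09, 0.09 and 0.07). In A549 against PC14, 6 were higher and 23 lower, where 67.4% of all probes were called. Of the 7 measured genes that MYC is known to repress, CDKN1A, the p21 inhibitor of cyclin-dependent kinases, was higher in PC14CDDP than in PC14 by 2.33 (SE 0.30), and the stress-response genes NDRG1 and NDRG2 were lower by -1.80 and -2.12 (SE 0.18 and 0.16). After pre-miR-197 limma called 0 of these 7, where 0.0801% of all probes were called, and had 3 at an unadjusted p under 0.05, beside 15.9%. After LNA-miR-197 it called 0 of the 7, where 7.95% of all probes were called, and had 3 at an unadjusted p under 0.05, beside 27.5%. The median log2 ratio of the 7 was -0.22 after pre-miR-197, beside 0.03 over all genes, and 0.35 after LNA-miR-197, beside -0.02.

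Genes of the glucose-responsive branch around MLX also differed between the lines. TXNIP, a target of MLX and MondoA that limits glucose uptake, was not well above background on any PC14 array and read -0.61 to 1.93 on the 4 PC14CDDP arrays, at least 87.5-fold higher. ARRDC4, the other target listed, was higher in PC14CDDP by 1.28 (SE 0.29, adjusted p = 0.0070). MLXIP, the gene of MondoA, fell after LNA-miR-197 by 0.70 on the log2 scale (SE 0.14, adjusted p = 0.0294), with ratios of -0.56, -0.50 and -1.05 in A549, PC14 and PC14CDDP. MGA, a MAX partner with a T-box, was higher in PC14CDDP than in PC14 by 0.92 (SE 0.07). MLXIPL, the gene of ChREBP, was above background on 4 of 4 PC14 arrays and 1 of 4 PC14CDDP arrays.

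Of 10 genes that control the stability of the MYC protein, FBXW7, the ubiquitin ligase subunit that marks MYC for degradation, was the only one called after LNA-miR-197. It rose by 0.41 on the log2 scale (SE 0.10, adjusted p = 0.0447), with ratios of 0.36, 0.34 and 0.55, and 7.95% of all probes were called in that comparison. Without any 1 of the 3 lines, or with only the arrays compared, 0 of all 33714 probes were called after LNA-miR-197, so the calls of FBXW7, MLXIP and COL1A1 were lost there, as that of MAX probe 2 was. In PC14CDDP against PC14, where 48.7% of all probes were called, 5 of the 10 rose and 1 fell. Of the 11 MYC cofactors 5 rose and 2 fell, and of the 8 corepressor genes of the MXD and MNT proteins 4 rose and 2 fell. HDAC2, a deacetylase of the SIN3 complex, rose by 1.26 (SE 0.08). After both transfections 0 cofactors and 0 corepressors were called.

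The pattern of MYC over the 12 arrays was compared with that of 18441 other genes, each by its brightest probe above background on all arrays. The highest Pearson correlations were those of TARDBP (0.95), WDR43 (0.94), AFMID (0.94), FABP5 (0.94) and JUN (0.94). TARDBP encodes the RNA-binding protein TDP-43, WDR43 a factor of ribosome assembly, AFMID an enzyme of tryptophan breakdown, FABP5 a fatty acid carrier and JUN a subunit of AP-1. With the mean of each line subtracted, the 4 highest were POU3F1 (0.97), UTP18 (0.97), STOML2 (0.97) and CENPN (0.95). Among the members, MXD4 probe 2 had -0.87 over the 12 arrays and -0.91 with line means subtracted, and MXD1 probe 1 had 0.30 and -0.92. These are descriptions over 12 arrays that share lines, slides and scaling, and they carry no test.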

How the data were processed

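The authors extracted total RNA from the transfected cells, labelled it with Cy3 and hybridised it to SurePrint G3 Human GE v2 arrays. The intensity values are the processed signals that the authors deposited from Agilent Feature Extraction (version 10.7.3.1, per the labels), with spot flags for background, saturation and outliers. The probes carry hg19 coordinates per the file headers. The deposited value table equalled the processed signal itself on every array (maximum difference 0.0). Scaled in the same way, it served as an alternative that could only repeat the main values. No column belonged to other samples.

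Outlier spots were left out, spots of a probe were averaged, and signals were divided by the 75th percentile of the non-control spots of their array (614 to 715 signal units) before log2 was taken. Per array, 55.8% to 63.1% of probes passed the background flag, and 0 spots were saturated. The precision is limited by the number of arrays, 1 per line and transfection. With limma 3.58.1 in R 4.3.3, a model with transfection and line was fitted to 33714 probes well above background on at least 3 of 12 arrays, with Benjamini-Hochberg adjustment over all of them and a threshold of 0.05. The line term is the pairing: arrays of a line deviated together, with correlations of 0.929 to 0.947 in A549, 0.879 to 0.903 in PC14 and 0.845 to 0.897 in PC14CDDP. Lists were read with 1 probe per gene, the brightest, over 24860 genes. A bound "at least N-fold" sets the mean of the bright line against, on each array, the higher of the dimmest signal well above background and the dim probe's own signal.

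The members and the gene lists were chosen with earlier results of these data known. Full statistics were given for the MYC probes and for at most 6 called member probes per comparison by smallest adjusted p, and at most 4 called genes per list. The other member probes are named with values to cover all members, and list genes that were not called were named after their values were seen. The lists were MYC-activated and MYC-repressed targets, MLX-MondoA targets, other network genes, cofactors, corepressors, MYC turnover, and markers of epithelium, lung adenocarcinoma lineage, leukocytes, fibroblasts and endothelium. Of 4 endothelial genes 3 were measured, and 2 differed between PC14CDDP and PC14, 1 in each direction. Some items of these lists are not reported here.

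Alternatives were quantile normalization, normexp background correction (offset 50), no filter or a filter on all 12 arrays, and 1 probe per gene. Others were only the arrays compared, a trended and robust prior, and slide as a random block in place of the line term. The rest were no line or transfection term, NC in place of LNA-NC, leaving out each line or transfection, and the methods' t-test. Scripts were tested on simulated data. Files were read with Python 3.11.15, numpy 2.4.6 and pandas 2.3.3, and figures drawn with matplotlib 3.10.9.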

Additional observations from a re-analysis of the deposited data

Results flagged for a closer look

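Within a line, 6 of 57 groups of 4 arrays held an array whose gap to its neighbour passed Dixon's limit. The 4 arrays of a group had different transfections, and the groups share arrays. The limit's chance rate of about 1 in 20 groups therefore does not apply here. For MXD1 probe 1 the pre-miR-197 array was the lowest in PC14, at -0.62 against 0.06 for the nearest, and in PC14CDDP, at -0.86 against -0.17. For MXD4 probe 2 the pre-miR-197 array of A549 was the lowest, at -1.42 against -0.97. The other arrays were the PC14 LNA-miR-197 array for MAX probe 1 (3.75, nearest 3.55), the PC14 pre-miR-197 array for MNT probe 1 (2.28, nearest 2.12) and the A549 LNA-miR-197 array for MNT probe 2 (-1.69, nearest -1.43).

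MXD1 probe 2 went opposite ways in different lines. After LNA-miR-197 against LNA-NC its log2 ratio was 0.91 in PC14CDDP and -0.57 in A549, a gap of 1.48. Between the controls, LNA-NC against NC, it was 1.46 in A549 and -0.28 in PC14CDDP, a gap of 1.74. Both use the A549 LNA-NC array, which read -2.79 for this probe. With 1 array per line and transfection, the difference between lines was not tested.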

How the results depend on the processing

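Of the counts of member probes called, 73 stayed within 1.5 times the main count over the alternatives and 24 did not. Among the alternatives was the deposited value table, which holds the main values, so its counts could only repeat the main ones. Where an alternative called 0 of all probes, as after pre-miR-197 without each line in turn, a main count of 0 was also bound to stay. After pre-miR-197 the count was 0, and 2 with normexp, with the filter on all 12 arrays and with the trended, robust prior. Each time 1 of the 2 was MXD1 probe 1 and the other MYC probe 1, whose ratio was known when the genes were chosen and supports nothing. After LNA-miR-197 it was 1, and 2 with quantile normalization, 3 with normexp, 4 with the filter on all 12 arrays and with the trended prior, and 5 with NC as the control, the added probes being those of MXI1 and, with NC, MAX probe 3 and MXD3 probe 2. It was 0 with no filter and with 1 probe per gene. It was also 0 with only the arrays compared, with the methods' t-test and without each line in turn (0 to 0). It was 0 as well without the line block and with slide as a random block in its place, neither of which keeps the pairing. Apart from no filter and 1 probe per gene, the settings with a count of 0 called at most 6 of all 33714 probes. A count of 0 members carries no information there. LNA-NC against NC gave 1 with the filter on all 12 arrays. For PC14CDDP against PC14 (12), 1 probe per gene gave 5 and the t-test 6, leaving out a transfection gave 7 to 11 (7 without the LNA-NC arrays), and dropping the transfection block gave 7. With 1 probe per gene, A549 gave 8 against PC14 and 8 against PC14CDDP. With 1 probe per gene 9 member probes remain, and the other causes were not tested. The block changed no other count by over 1.5 times.

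Of values for single probes, 340 kept their direction and side of the threshold, 10 lost the call, 3 gained it and 1 reversed. Those from the deposited value table, which holds the main values, were bound to be among the 340. The 3 were MYC after pre-miR-197, and the reversed value was MYC in LNA-NC against NC, not called, at -0.14 without PC14 against 0.02. MAX probe 2 lost its call with no filter (adjusted p = 0.0829), with only the arrays compared (0.218) and with the t-test (0.421). It also lost it without the line block (1.00) and with slide as a block in place of the line term (0.471). Of all 33714 probes, 0 were called with only the arrays compared and 1 with the t-test. Without the line block 3 were called, and with slide as a block 6. Losing the call in these settings carries no information about MAX. Over all alternatives its adjusted p ran from 0.0123 to 1.00. By the t-test MYC in A549 against PC14 (adjusted p = 0.0895) and MNT probe 2 in PC14CDDP against PC14 were not called. Probes near background, MYCL1 probe 2 and MXD3 probe 2 among them, have the least precise ratios.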
